A study of Arabidopsis thaliana with 11 samples.

Results

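Flower buds and leaves of Arabidopsis thaliana were each sampled under the numbers 1 and 2, and the comparison described here sets the samples numbered 1 against those numbered 2 in both tissues at once. Set 1 holds flower bud 1 and leaf 1a, and set 2 holds flower bud 2 and leaf 2. These 4 libraries, chosen by their number and by their HiSeq run, are 4 of the 11 libraries of the series. All plants were wild type, grew in greenhouse soil with no treatment, and were harvested once the first flower had opened. Each library was prepared from polyA-selected RNA and sequenced as read pairs on a HiSeq2000. The labels state no pairing of flower bud and leaf samples by number, no harvest day and no harvest time, and they leave out whether different plants were used for each number. The p-values therefore cover only the spread between the libraries of each fit, which may be technical: these 4 in the comparison of the sets, and leaf 3 and 4 as well where they enter. Values are given for bud 1, bud 2, leaf 1 and leaf 2, each 1 library, as CPM, the counted read pairs of a locus scaled to the size of the library. No value within a tissue has a replicate.

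The circadian clock of plants is a loop of transcription factors that repress each other in turn through the day. CCA1 and LHY, a pair of MYB-like repressors, peak around dawn and bind the evening element, a short motif in the promoters of genes expressed later in the day, among them TOC1, PRR5 and GI. Clock genes are therefore used as a readout of the time of day at which a tissue was collected, and the clock drives daily rhythms in starch turnover, nitrate assimilation and cold response genes.

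The promoters of 7 clock genes and outputs and of 1 heat shock regulator named in the results below are printed first. Each was chosen among promoters that hold the motif marked in it. Each is the 250 bases before the gene start, 5′ to 3′ on the gene's strand, from RefSeq assembly TAIR10.1, matched by locus identifier. Capitals mark the G-box (CACGTG) in LHY and CCA1, the evening element (AAAATATCT or its reverse complement) in PRR5, TOC1, FKF1, GRP7 and CAT3, and the core of the heat shock element (GAANNTTC) in HSFA2.
LHY (chr1:37872-38121, minus strand): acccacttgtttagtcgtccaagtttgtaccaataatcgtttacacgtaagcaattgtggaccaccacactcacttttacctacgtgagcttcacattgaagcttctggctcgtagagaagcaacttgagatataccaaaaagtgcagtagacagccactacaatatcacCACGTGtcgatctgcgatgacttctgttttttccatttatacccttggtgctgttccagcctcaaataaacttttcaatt
CCA1 (chr2:19245341-19245590, plus strand): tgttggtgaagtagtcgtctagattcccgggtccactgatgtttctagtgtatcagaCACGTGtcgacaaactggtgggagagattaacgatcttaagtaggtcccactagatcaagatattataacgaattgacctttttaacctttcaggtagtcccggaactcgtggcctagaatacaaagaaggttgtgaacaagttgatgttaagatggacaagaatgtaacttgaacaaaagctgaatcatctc
PRR5 (chr5:8358547-8358796, minus strand): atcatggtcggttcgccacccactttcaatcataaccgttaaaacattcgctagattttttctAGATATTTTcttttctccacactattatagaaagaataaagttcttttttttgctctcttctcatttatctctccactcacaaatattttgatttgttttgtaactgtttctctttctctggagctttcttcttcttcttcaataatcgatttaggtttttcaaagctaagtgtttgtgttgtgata
TOC1 (chr5:24674713-24674962, plus strand): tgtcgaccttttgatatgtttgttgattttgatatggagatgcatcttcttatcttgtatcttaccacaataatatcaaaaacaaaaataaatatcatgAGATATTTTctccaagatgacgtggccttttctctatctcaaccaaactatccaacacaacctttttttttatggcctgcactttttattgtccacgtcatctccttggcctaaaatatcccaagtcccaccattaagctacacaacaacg
FKF1 (chr1:25508389-25508638, plus strand): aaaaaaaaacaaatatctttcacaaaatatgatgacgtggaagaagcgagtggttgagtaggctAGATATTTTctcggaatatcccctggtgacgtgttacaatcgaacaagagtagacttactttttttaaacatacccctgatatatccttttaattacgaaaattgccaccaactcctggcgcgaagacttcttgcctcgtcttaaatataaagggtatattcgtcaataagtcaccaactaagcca
GRP7 (chr2:9266558-9266807, minus strand): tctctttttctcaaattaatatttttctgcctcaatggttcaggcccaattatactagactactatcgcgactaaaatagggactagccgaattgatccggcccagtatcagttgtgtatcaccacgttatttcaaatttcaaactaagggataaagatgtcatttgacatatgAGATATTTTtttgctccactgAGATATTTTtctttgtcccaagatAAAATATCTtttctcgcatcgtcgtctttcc
CAT3 (chr1:7142722-7142971, plus strand): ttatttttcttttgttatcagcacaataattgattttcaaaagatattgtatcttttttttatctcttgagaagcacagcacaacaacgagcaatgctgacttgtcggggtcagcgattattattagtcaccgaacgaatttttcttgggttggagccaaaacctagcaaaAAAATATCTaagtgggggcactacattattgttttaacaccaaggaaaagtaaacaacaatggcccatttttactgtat
HSFA2 (chr2:11135374-11135623, plus strand): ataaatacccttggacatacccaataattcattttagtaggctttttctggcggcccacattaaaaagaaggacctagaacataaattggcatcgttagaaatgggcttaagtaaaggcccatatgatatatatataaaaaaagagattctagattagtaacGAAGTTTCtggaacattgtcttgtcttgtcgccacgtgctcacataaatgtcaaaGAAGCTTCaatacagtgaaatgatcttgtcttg
GRP7 holds 3 evening elements in this stretch and the other 4 genes shown for that motif hold 1 each.

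The HiSeq runs held 182707504 counted pairs in flower bud 1, 192817049 in leaf 1, 182862355 in flower bud 2 and 187815247 in leaf 2. The 23 tested genes of the anther, tapetum and pollen summed to 5468 CPM in flower bud 1 and 6527 in flower bud 2, and to 12.9 CPM in leaf 1 and 13.6 in leaf 2, so the tissue labels matched their markers. The 7 tested root markers summed to 47.4 CPM in flower bud 1 and 70.1 in flower bud 2, and to 77.9 in leaf 1 and 64.0 in leaf 2. Multiplex runs of the same 4 samples gave ratios of number 1 over number 2 that correlated with those of the HiSeq runs at r = 0.950 in flower buds and 0.907 in leaves over 21905 loci. Those runs are technical repeats of the same samples.

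Between the sets, 0 of 23672 tested loci were called higher and 0 lower (0% in each direction) by edgeR's quasi-likelihood test with tissue as a block, and the lowest Benjamini-Hochberg adjusted p was 0.276. That fit has 1 residual degree of freedom per locus, and the spread it measures is how far the shift between numbers differs between the tissues, with a biological coefficient of variation of 32.4%. At an unadjusted p under 0.05, 1075 loci were higher (4.54%) and 1311 lower (5.54%) in set 1. DESeq2 called 178 loci higher (1.03% of the 17247 with an adjusted p) and 246 lower (1.43%). A fit of 6 samples, with leaf 3 and 4 of the older GA II sequencer as a level of their own, called 0 higher and 0 lower, at a lowest adjusted p of 0.0797. No gene is therefore written of as having changed between the sets, and the values below are given as levels and ratios.

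The shift in flower buds was related to that in leaves across loci with a Pearson r of 0.249 and a Spearman rho of 0.290 over 23672 loci, which are not independent of each other. The direction matched in both tissues for 13729 loci (58.0%), of which 7094 were higher in set 1 (30%) and 6635 lower (28%). It was opposite for 8561 loci, and the rest had a ratio of 0 in at least 1 tissue. At least 2-fold ratios were found for 3082 loci in flower buds (1042 higher and 2040 lower in flower bud 1) and 4908 in leaves (3096 higher and 1812 lower in leaf 1). Both tissues passed 2-fold in the same direction for 378 loci higher in set 1 (1.6%) and 404 lower (1.71%). Nuclear loci made up 377 of the 378 and 345 of the 404, and the rest were of the organelle genomes. The 782 loci of both directions (3.3%) are 25.4% of those past 2-fold in flower buds and 15.9% of those past it in leaves. Opposite directions past 2-fold were found for 265 loci. Of the 378 loci, 316 were tested in the multiplex runs and 302 of them were higher in set 1 in both tissues there, and of the 404, 331 were tested and 318 were lower in both. Among loci with a mean of at least 10 CPM, the one just inside the 2-fold limit was AT5G10400 at log2 ratios of 1.0 in flower buds and 2.3 in leaves, and the one just outside was AT1G02813 at 0.999 and 2.27. On the lower side they were AT3G14200 at -1.0 and -1.21 and VHP2;2 at -1.17 and -0.999.

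**Figure D1:**
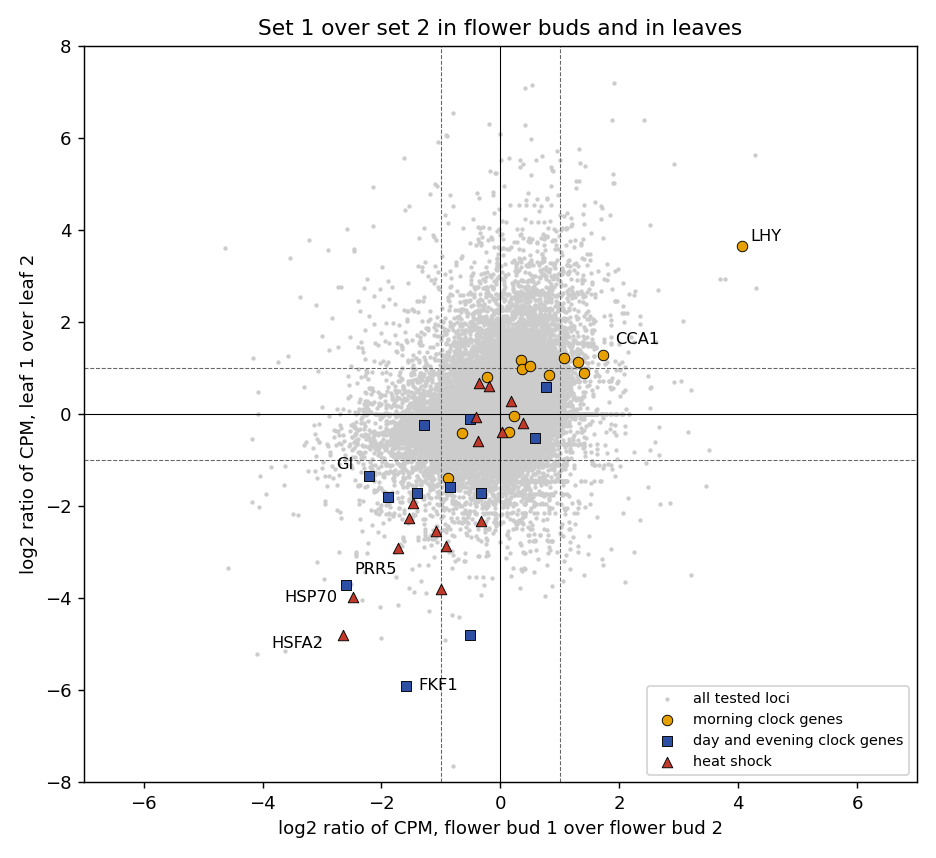
Log2 ratio of CPM of set 1 over set 2 for 23672 tested loci, in flower buds (x axis) and leaves (y axis), with morning clock genes as circles, day and evening clock genes as squares and heat shock genes as triangles; dashed lines mark 2-fold. LHY is at the upper right, and PRR5, HSP70 and HSFA2 are at the lower left; 1 locus lies outside the axes.

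Most morning genes of the clock stood higher in set 1. LHY (AT1G01060), the dawn repressor, had the lowest p of all tested loci and stood at 264 CPM in bud 1 and 15.8 in bud 2, and 377 in leaf 1 and 29.9 in leaf 2. Both samples of set 1 were above both of set 2, and the ratio was 4.06 on the log2 scale in flower buds and 3.66 in leaves, or 3.86 ± 0.37 over both (SE; edgeR adjusted p = 0.276; DESeq2 adjusted p = 3.07e-33). CCA1, its partner, stood at 112 CPM in bud 1 and 33.8 in bud 2, and 453 in leaf 1 and 186 in leaf 2. Within each tissue the sample numbered 1 was the higher, while leaf 2 was above flower bud 1, and the ratio over both tissues was 1.51 ± 0.35 (SE; edgeR adjusted p = 0.464). RVE8, a relative that activates genes through the evening element, stood at 41.0 CPM in bud 1 against 16.5 in bud 2, and 105 in leaf 1 against 47.6 in leaf 2. Over both tissues the log2 ratio was 1.22 ± 0.27 (SE; edgeR adjusted p = 0.458). LNK3 and LNK4, of the family of coactivators that work with RVE8, had log2 ratios of 1.14 and 1.15. LNK3 stood at 89.8 CPM in bud 1 against 34 in bud 2, and 276 in leaf 1 against 149 in leaf 2. The levels of LNK4 were 49.4 CPM in bud 1 and 23.5 in bud 2, and 169 in leaf 1 and 72.3 in leaf 2.

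Of 14 morning clock genes tested, 9 were higher in set 1 in both tissues and 2 lower, against 30% and 28% of all loci. At least 2-fold higher in both were 4 and lower 0, against 1.6% and 1.71%. The median log2 ratio of the list was 0.77 over both tissues (0.43 in flower buds and 0.93 in leaves). Over all tested loci it was 0.04 (0.05 in flower buds and 0 in leaves). Among the other members, the log2 ratio of LNK2 was 0.77, RVE2 at 0.84, RVE4 at 0.76, RVE1, which links the clock to auxin, at 0.67, and CDF1, a repressor of flowering that FKF1 and GI remove, at 0.29. LNK1 at 0.10 and PRR9 at -0.12, a morning repressor of CCA1 and LHY, stood in opposite directions in the tissues, as did CDF1. The 2 that were lower in set 1 in both tissues were PRR7, at -0.53, and RVE7, at -1.14. For RVE7 the levels were 21.1 CPM in bud 1 and 39.1 in bud 2, and 18.0 in leaf 1 and 46.9 in leaf 2.

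Most genes of the day and evening loop stood lower in set 1. PRR5 (AT5G24470), an afternoon repressor of CCA1 and LHY, stood at 1.82 CPM in bud 1 and 11.1 in bud 2, and 2.32 in leaf 1 and 30.7 in leaf 2. Both samples of set 1 were below both of set 2, and the log2 ratio was -2.6 in flower buds, -3.72 in leaves and -3.16 ± 0.42 over both (SE; edgeR adjusted p = 0.305). GI, which stabilises ZTL and acts in flowering, stood at 17.0 CPM in bud 1 and 78.3 in bud 2, and 85.5 in leaf 1 and 218 in leaf 2. The sets overlapped, leaf 1 lying just above bud 2, at a log2 ratio of -1.78 ± 0.35 (SE; edgeR adjusted p = 0.406). ELF3, the scaffold of the evening complex that represses PRR9 and growth genes at night, stood at 13.3 CPM in bud 1 and 35.1 in bud 2, and 11.2 in leaf 1 and 36.6 in leaf 2. The 2 tissues gave like levels of ELF3 for each number, both samples of set 1 lay below both of set 2, and the log2 ratio was -1.55 ± 0.28 (SE; edgeR adjusted p = 0.381).

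ELF4, its partner in the complex, stood at 0.511 CPM in bud 1 against 1.93 in bud 2, and 1.28 in leaf 1 against 4.48 in leaf 2. LUX, the DNA-binding subunit, stood at 10.6 CPM in bud 1 against 13.3 in bud 2, and 1.03 in leaf 1 against 3.4 in leaf 2. TOC1, the evening repressor of CCA1 and LHY, stood at 17.5 CPM in bud 1 against 31.4 in bud 2, and 11.5 in leaf 1 against 34.8 in leaf 2. The log2 ratio over both was -1.21 ± 0.31 (SE; edgeR adjusted p = 0.469), and both of its set 1 samples were below both of its set 2 samples. FKF1, a blue light receptor that removes CDF repressors, stood at 0.812 CPM in bud 1 and 2.46 in bud 2, and 0.0873 in leaf 1 and 5.83 in leaf 2. The ratio of FKF1 was far larger in leaves, -5.9 on the log2 scale, than in flower buds, -1.58. Leaf 1 held only 13 pairs of FKF1, so the size of its leaf ratio is uncertain. PRR3 had the same pattern at -4.8 in leaves and -0.51 in flower buds. ZTL, which degrades TOC1, had a log2 ratio of -0.76 and its relative LKP2 one of -0.31. CHE, a repressor of CCA1, was the 1 member higher in set 1 in both tissues, at a log2 ratio of 0.68, and BOA, a relative of LUX, stood at 0.11 with opposite directions in the tissues.

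Of the 12 day and evening genes tested, 10 were lower in set 1 in both tissues and 1 higher. The shares over all loci were 28% and 30%. At least 2-fold lower in both tissues were 5, PRR5, GI, ELF3, ELF4 and FKF1, against 1.71% of all loci, and 0 were 2-fold higher in both. Their median log2 ratio was -1.38 over both tissues, -1.06 in flower buds and -1.65 in leaves. At an unadjusted p under 0.05, 6 of the 12 were lower and 1 higher, against 5.54% and 4.54% of all loci.

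**Figure D2:**
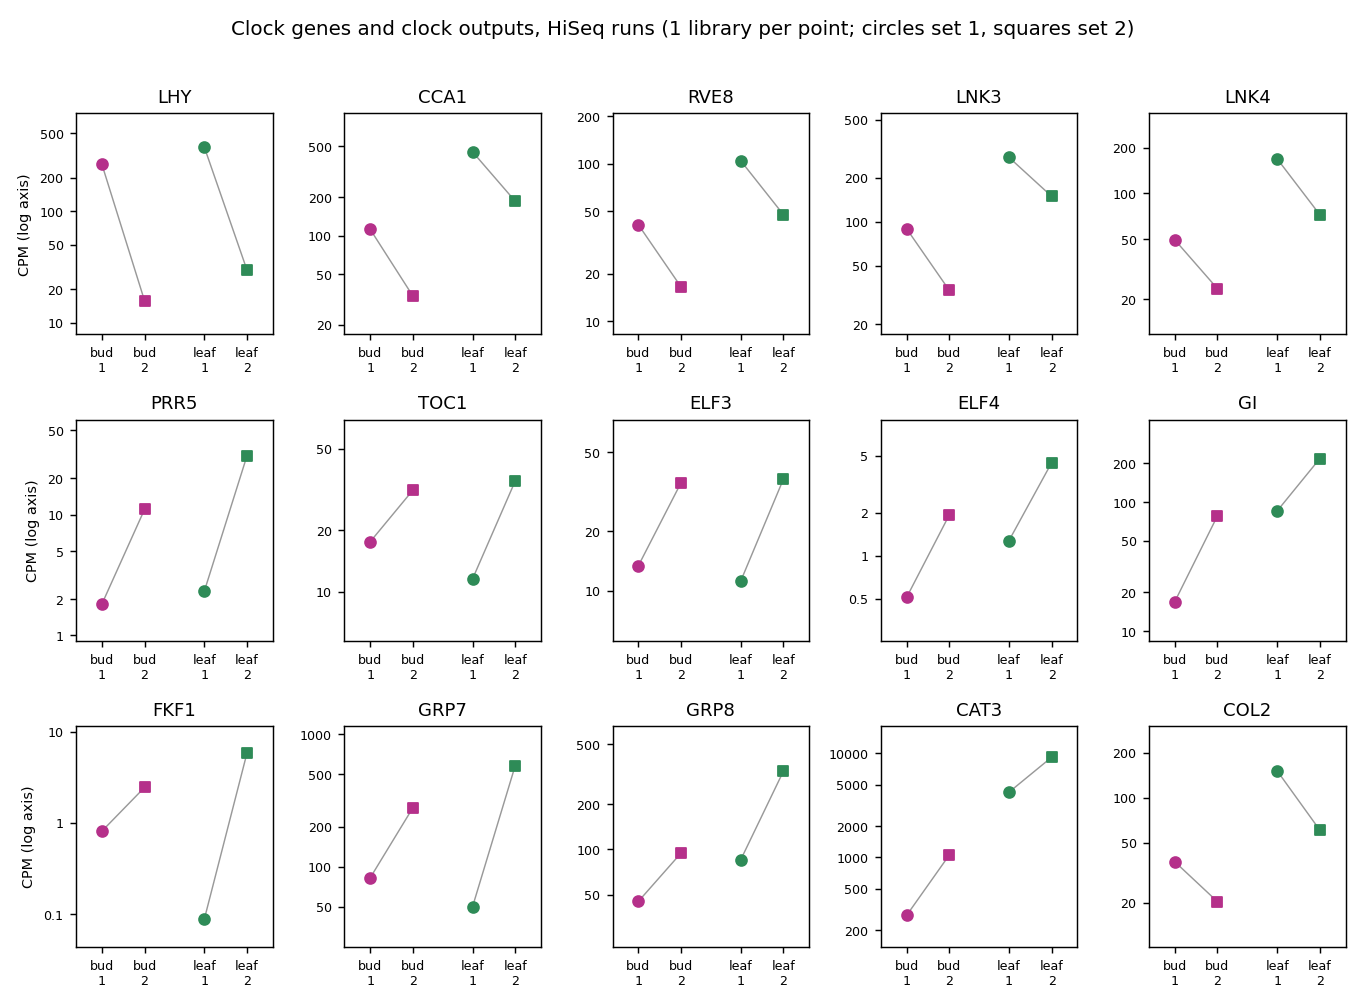
CPM of 15 clock genes and outputs on log axes, 1 library per point, with circles for set 1 and squares for set 2, flower buds at the left of each panel and leaves at the right. The morning genes of the top row and COL2 are higher in set 1 in both tissues. PRR5, TOC1, ELF3, ELF4, GI, FKF1, GRP7, GRP8 and CAT3 are lower in set 1 in both. Members that differ are not shown, among them RVE7 and PRR7, lower in both tissues, CHE, higher in both, and PRR9, LNK1, CDF1, BOA and CAT2, in opposite directions. On the full lists 9 of 14 morning genes were higher in both tissues and 10 of 12 day and evening genes lower.

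Among 13 photoperiod genes and clock outputs, 5 were higher in set 1 in both tissues and 5 lower. Over all loci the shares were 30% and 28%, and the median log2 ratio of the list was -0.05. GRP7, an RNA-binding protein in a slave loop of the clock, stood at 82.3 CPM in bud 1 and 278 in bud 2, and 49.8 in leaf 1 and 578 in leaf 2. Both samples of set 1 were below both of set 2, at a log2 ratio of -2.65 ± 0.54 (SE; edgeR adjusted p = 0.406). Its relative GRP8 stood at 45.1 CPM in bud 1 against 94.5 in bud 2, and 85.4 in leaf 1 against 331 in leaf 2. CAT3, a catalase with an evening phase, stood at 277 CPM in bud 1 and 1055 in bud 2, and 4238 in leaf 1 and 9189 in leaf 2, lower with number 1 in each tissue, at a log2 ratio of -1.52 ± 0.78 (SE; edgeR adjusted p = 0.556). These 3 of the 13 were at least 2-fold lower in both tissues, against 1.71% of all loci. CAT2, the catalase with a morning phase, had log2 ratios of -0.82 in flower buds and 0.42 in leaves.

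On the higher side, BBX19, a B-box repressor of flowering, stood at 16.7 CPM in bud 1 against 5.71 in bud 2, and 33.7 in leaf 1 against 15.5 in leaf 2, at least 2-fold higher in both tissues. COL2, a relative of CONSTANS, stood at 37.4 CPM in bud 1 against 20.3 in bud 2, and 151 in leaf 1 against 60.9 in leaf 2. This gave a log2 ratio of 1.1, and CDF2 had a log2 ratio of 0.73. Flowering genes had log2 ratios near 0. FT, the mobile flowering signal, stood at 3.93 CPM in bud 1 against 3.99 in bud 2, and 29.9 in leaf 1 against 31.9 in leaf 2. CO, its activator, stood at 1.52 CPM in bud 1 against 1.13 in bud 2, and 0.443 in leaf 1 against 0.524 in leaf 2. Log2 ratios of the rest were 0.27 for SOC1, 0.32 for BBX18, -0.33 for CDF3 and -0.05 for COL1.

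Leaf 3 and 4 have no counterpart in flower buds. They stood mostly below leaf 2 for morning clock genes and above it for day and evening ones. On the scaling of all 6 samples LHY stood, in CPM, at 336 in leaf 1, 26.6 in leaf 2, 3.64 in leaf 3 and 3.94 in leaf 4. PRR5 stood at 2.07 in leaf 1, 27.3 in leaf 2, 243 in leaf 3 and 270.1 in leaf 4. GRP7 stood at 44.4 in leaf 1, 516 in leaf 2, 2475 in leaf 3 and 3347 in leaf 4. Of the 14 morning genes 12 were below leaf 2 in both leaf 3 and leaf 4, against 46.5% of all loci. Of the 12 day and evening genes 10 were above it in both, against 39.9%. These counts leave leaf 1 aside: from leaf 1 to leaf 4, PRR9 stood at 127, 168, 29.0 and 16.7, and CHE at 30.4, 20.3, 111 and 98.1. Lists outside the clock were as one-sided. All 12 cold, 16 ribosome and nucleolus and 23 cell cycle genes were above leaf 2 in both, and 17 of 19 salicylate genes below it. Starch genes were split, 8 above and 8 below of 16. Leaf 3 and 4 were sequenced on another machine, and sequencer and sampling cannot be told apart. Whether harvest time moves with the sample numbers was not tested, since the labels give no time.

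The evening element, searched on both strands in 250 bases before and 50 after the gene start, was found in 2.94% of the 23347 promoters read. It was in 37 of the 338 promoters read among loci at least 2-fold lower in set 1 in both tissues (10.9%), and in 10 of 377 among loci at least 2-fold higher in both (2.65%). It was in 5 of the 12 day and evening clock genes, 4 of the 13 photoperiod genes and outputs and 2 of the 14 morning genes. GI, ELF3 and ELF4, at least 2-fold lower in both tissues, held none in this window. COL2, higher in set 1 in both tissues, did hold it, as did the morning genes PRR9 and RVE7. The CCA1-binding site (AAAAATCT), which shares no full match with the evening element, was in 7.89% of all promoters, in 24 of the 338 and in 23 of the 377. The G-box, bound by bHLH and bZIP factors, was in 8.36% of all promoters and in 10 of the 14 morning genes. These are matches of letters and carry no measure of binding.

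Of 16 heat shock genes tested, 11 stood lower in set 1 in both tissues and 1 higher, against 28% and 30% of all loci. The other 4 stood in opposite directions. HSP70 (AT3G12580), a cytosolic chaperone, stood at 7.31 CPM in bud 1 and 41.0 in bud 2, and 9.51 in leaf 1 and 149.8 in leaf 2. Both samples of set 1 were below both of set 2, at log2 ratios of -2.49 in flower buds, -3.98 in leaves and -3.23 ± 0.43 over both (SE; edgeR adjusted p = 0.305). HSFA2, the heat-induced transcription factor whose promoter is printed above, stood at 1.01 CPM in bud 1 and 6.38 in bud 2, and 1.53 in leaf 1 and 42.5 in leaf 2. Its ratio on the log2 scale was -3.73 ± 0.59 (SE; edgeR adjusted p = 0.340). Named after their values were seen, HSP101, a disaggregase, stood at 8.57 CPM in bud 1 against 28.2 in bud 2, and 10.7 in leaf 1 against 81.3 in leaf 2. HSP90.1, an inducible HSP90, stood at 8.17 CPM in bud 1 against 16.4 in bud 2, and 9.69 in leaf 1 against 136 in leaf 2. MBF1C, a coactivator of heat responses, stood at 5.85 CPM in bud 1 against 17.1 in bud 2, and 10.7 in leaf 1 against 51.6 in leaf 2. In each of the 3, both samples of set 1 were below both of set 2. BAG6 and ROF2, which bind HSP70 and HSP90 chaperones, had log2 ratios of -1.7 and -1.82.

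Those 7 genes are the ones of the 16 at least 2-fold lower in both tissues, against 1.71% of all loci. The median log2 ratio of the list was -1.56 over both tissues, -0.66 in flower buds and -2.1 in leaves. HSP18.2, a small heat shock protein gene, stood at 4.07 CPM in bud 1 against 4.65 in bud 2, and 1.07 in leaf 1 against 0.701 in leaf 2. In leaf 3 and 4, HSP70 was 4.94 and 6.32 CPM, against 8.48 in leaf 1 and 134 in leaf 2, so leaf 2 stood above the other 3 leaf samples. The core of the heat shock element was in 8 of the 16 promoters of the list and in 11.5% of all promoters. The genes of the unfolded protein response of the endoplasmic reticulum had a median log2 ratio of 0.06, with BIP3, a chaperone, at 1.14 and BZIP60, its activator, at 0.26.

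Of 16 genes of starch synthesis and breakdown, 10 were lower in set 1 in both tissues and 3 higher. Over all loci the shares were 28% and 30%, and the median log2 ratio of the list was -0.36. At least 2-fold lower in both were 4, against 1.71% of all loci. These 4 act in breakdown, as do most genes of the list. SEX1, the glucan water dikinase that starts breakdown, stood at 62.4 CPM in bud 1 and 192 in bud 2, and 218 in leaf 1 and 967 in leaf 2. Over both tissues the log2 ratio was -1.89 ± 0.41 (SE; edgeR adjusted p = 0.445). Leaf 1 was above flower bud 2, so the sets overlapped across tissues while each tissue was lower in number 1. DPE1, which joins maltotriose units, stood at 22.9 CPM in bud 1 against 56.0 in bud 2, and 12.3 in leaf 1 against 81.4 in leaf 2. That is a log2 ratio of -2.0 ± 0.40 (SE; edgeR adjusted p = 0.406). PHS1 and PHS2, glucan phosphorylases named after their values were seen, had log2 ratios of -1.28 and -1.5. The starch synthase gene GBSS1 stood at 0.48 and ADG1, a subunit of the enzyme that makes ADP-glucose, at 0.16.

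NIA1, a nitrate reductase, stood at 13.2 CPM in bud 1 and 103 in bud 2, and 110.2 in leaf 1 and 408 in leaf 2. Number 1 was the lower in each tissue, but leaf 1 lay above bud 2. The log2 ratio over both was -2.42 ± 0.41 (SE; edgeR adjusted p = 0.354), and NIA1 was the 1 of 10 nitrate response genes past 2-fold in both tissues. Of those 10, 5 were lower in both tissues and 2 higher, against 28% and 30% of all loci. The median log2 ratio of the list was -0.74 in flower buds and 0.03 in leaves. LBD39, a repressor of nitrate genes, stood at 7.75 CPM in flower bud 1 and 4.77 in flower bud 2, and had 119 pairs in leaf 1 and 1 in leaf 2. Of 12 cold response genes, 7 were lower in both tissues and 4 higher, against 28% and 30% of all loci. The median log2 ratio of the list was -0.28, and 4 were at least 2-fold lower in both tissues, against 1.71%. GolS3, a galactinol synthase of cold-treated plants, stood at 0.218 CPM in bud 1 against 1.1 in bud 2, and 5.47 in leaf 1 against 16.4 in leaf 2. CBF1, a cold-induced activator, stood at 0.0437 CPM in bud 1 against 0.300 in bud 2, and 0.867 in leaf 1 against 1.88 in leaf 2. CBF3 and RD29A, named after their values were seen, had log2 ratios of -1.82 and -1.69. COR15A, a protective protein made in the cold, stood at 378 CPM in bud 1 against 329.6 in bud 2, and 194 in leaf 1 against 61.9 in leaf 2. Of 18 abscisic acid and drought genes, 0 were higher in set 1 in both tissues, 8 were lower and 10 stood in opposite directions. All loci gave 30% higher, 28% lower and 8561 of 23672 in opposite directions. The medians of the list were -0.35 in flower buds, 0.10 in leaves and -0.08 over both. HAI2, a phosphatase of that pathway, had a log2 ratio of -1.49 and NCED3, which makes the hormone, one of -1.39.

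**Figure D3:**
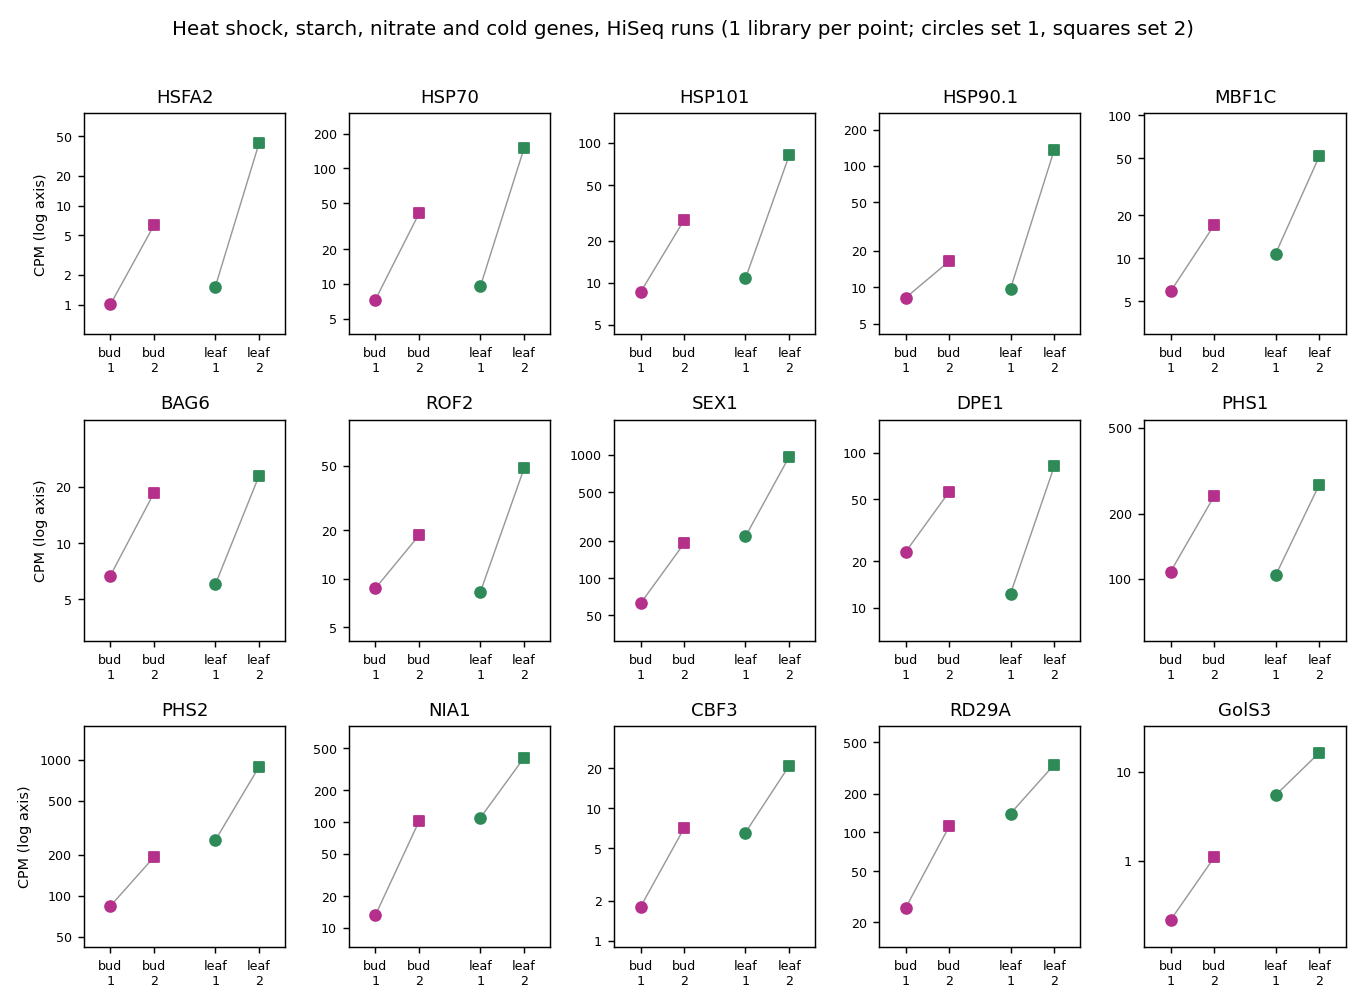
CPM of 7 heat shock, 4 starch, 1 nitrate and 3 cold genes on log axes, 1 library per point, circles for set 1 and squares for set 2. In each panel the sample numbered 1 is below the one numbered 2 in flower buds (left) and in leaves (right). Only genes lower in set 1 in both tissues are shown, so the shared direction follows from that choice. Members that differ are left out, among them COR15A, higher in both tissues, and HSP18.2, higher in leaf 1 than in leaf 2. Lower in both tissues on the full lists were 11 of 16 heat shock and 10 of 16 starch genes. The same held for 5 of 10 nitrate and 7 of 12 cold genes. Higher in both were 1, 3, 2 and 4 genes of these lists, in that order.

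XTH16 and EXO were among the 15 loci of lowest p on the higher side, and TCH4 and TCH2 had the largest ratios of the list of rapid touch and stress response genes. XTH16, an enzyme that cuts and rejoins xyloglucan, stood at 169 CPM in bud 1 and 35.7 in bud 2, and 17.3 in leaf 1 and 2.88 in leaf 2. This gave a log2 ratio of 2.41 ± 0.29 (SE; edgeR adjusted p = 0.305). EXO, a secreted protein of brassinosteroid-promoted growth, stood at 107 CPM in bud 1 and 21.0 in bud 2, and 22.3 in leaf 1 and 5.71 in leaf 2. Its ratio on the log2 scale was 2.16. TCH4, another xyloglucan enzyme and a classic touch-induced gene, stood at 6.14 CPM in bud 1 against 1.27 in bud 2, and 18.9 in leaf 1 against 2.98 in leaf 2. TCH2, a calmodulin-like touch gene, stood at 37.2 CPM in bud 1 against 11.1 in bud 2, and 49.4 in leaf 1 against 15.9 in leaf 2. In each of these 4 genes the sample numbered 1 was the higher in both tissues, and all were past 2-fold in both. Most rapid response genes were not. On the list that holds TCH4 and TCH2, 5 of 18 were higher in set 1 in both tissues and 7 lower. The shares over all loci were 30% and 28%. The median of the list was -0.22, and TCH3 stood at 0.04. Leaf 3 and 4 held 84.6 and 29.1 CPM of TCH4, above both other leaf samples.

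Among 20 light signalling genes, ELIP2, a chlorophyll-binding protein made in bright light, stood at 29.9 CPM in bud 1 against 8.33 in bud 2, and 6.61 in leaf 1 against 1.48 in leaf 2. HYH, a bZIP factor of light-grown seedlings, stood at 13.6 CPM in bud 1 against 4.55 in bud 2, and 35.9 in leaf 1 against 14.9 in leaf 2. Both were at least 2-fold higher in both tissues. HY5, the partner of HYH, named after its value was seen, had a log2 ratio of 1.05, and the median of the list was 0.03. In the flavonoid list, F3H, an early enzyme, had a log2 ratio of 1.43, and TT7, a later one, stood at -1.17, -0.01 in flower buds and -2.35 in leaves.

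Of 23 cell cycle and DNA replication genes tested, 18 were higher in set 1 in both tissues and 0 lower in both. The shares over all loci were 30% and 28%. The other 5 genes were in opposite directions, lower in flower bud 1 and higher in leaf 1. Of the 23, 15 had an unadjusted p under 0.05 on the higher side, against 4.54% of all loci, and the median log2 ratio was 1.06, with 0.67 in flower buds and 1.81 in leaves. PCNA1, the sliding clamp of DNA replication, stood at 33.9 CPM in bud 1 and 19.5 in bud 2, and 1.89 in leaf 1 and 0.274 in leaf 2. CYCB1;4, a mitotic cyclin, stood at 27.8 CPM in bud 1 and 16.2 in bud 2, and 1.28 in leaf 1 and 0.201 in leaf 2. Of the 23, 1, the mitotic kinase gene CDKB1;2, passed 2-fold in both tissues. The summed level of the list was 916 CPM in flower bud 1 and 644 in flower bud 2, and 50.7 in leaf 1 and 18.0 in leaf 2. In bulk samples, fewer cells of a type and less RNA per cell cannot be told apart. Leaf 3 and 4 were above leaf 1 for all 23 genes.

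The defence lists were mixed. Of 19 salicylate and pattern-triggered defence genes, 6 were higher in set 1 in both tissues, 3 lower and 10 in opposite directions, with a median log2 ratio of 0.07. Of 15 ethylene and defensin genes, 6 were higher in both and 3 lower, with a median of 0.47. Over all loci 30% were higher in both tissues and 28% lower, so the share higher in the salicylate list was near that of all loci. Of all 23672 loci, 8561 were in opposite directions. The members named here are the 2 of each list with the largest absolute log2 ratio. PDF1.2c, a jasmonate- and ethylene-induced defensin, had 6 pairs in flower bud 1 and 0 in flower bud 2, and stood at 232 CPM in leaf 1 and 30.9 in leaf 2. PDF1.3, a near copy, had 0 pairs in both flower bud samples and 171 CPM in leaf 1 against 2.52 in leaf 2. Its adjusted p of 0.276 in edgeR rests on leaves alone. Reads of such copies may be shared between them, since how the authors counted reads with several matches is not given in the sources used here. PR1, a marker of salicylate defence, stood at 0.328 CPM in bud 1 against 0.0739 in bud 2, and 87.8 in leaf 1 against 30.6 in leaf 2. PR2, another such marker, stood at 2.9 CPM in bud 1 against 0.956 in bud 2, and 357 in leaf 1 against 199.8 in leaf 2. MYB29, a regulator of aliphatic glucosinolates, had a log2 ratio of 1.49 and MYB76, with 0 pairs in flower buds, 2.8 CPM in leaf 1 and 0.695 in leaf 2.

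Loci without a place in these lists filled most of the remaining ranks by p, and are given with the RefSeq description where there is one. The adjacent pair AT2G15880, a leucine-rich repeat protein, and MEE14 (AT2G15890) was lower in set 1. AT2G15880 stood at 2.51 CPM in bud 1 and 60.1 in bud 2, and 0.847 in leaf 1 and 8.67 in leaf 2. MEE14 stood at 6.45 CPM in bud 1 and 34.6 in bud 2, and 13.6 in leaf 1 and 111 in leaf 2. AT5G23240, a DNAJ domain protein, stood at 0.817 CPM in bud 1 and 6.81 in bud 2, and 4.39 in leaf 1 and 129 in leaf 2. Over both tissues the log2 ratio was -3.98 ± 0.51 (SE; edgeR adjusted p = 0.305). ERF53, an AP2-type factor, stood at 0.245 CPM in bud 1 against 4.33 in bud 2, and 0.215 in leaf 1 against 8.32 in leaf 2. AT2G47890, a B-box protein with a CCT domain, stood at 1.59 CPM in bud 1 against 7.24 in bud 2, and 15.4 in leaf 1 against 65.5 in leaf 2. NUDT24, a nudix hydrolase homolog, stood at 0.170 CPM in bud 1 against 0.901 in bud 2, and 6.15 in leaf 1 against 102 in leaf 2. In all 6 loci the sample numbered 1 was the lower in both tissues.

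Further loci among the 15 of lowest p on the lower side were, by log2 ratio, AT2G25730, a zinc finger FYVE domain protein, at -2.17, AT4G17140 at -2.16, AT5G06570 at -3.14, AT1G76590 at -2.06, AT1G20070 at -1.95 and AT2G20560, a DNAJ family protein, at -2.31. AT1G15125, an S-adenosyl-L-methionine-dependent methyltransferase family member at -2.34, and AT2G33830, of the dormancy and auxin associated family at -3.03, were lower by at least 2-fold in both tissues. On the higher side, AT5G57760, uncharacterised, stood at 0.825 CPM in bud 1 and 0.0323 in bud 2, and 17.62 in leaf 1 and 0.348 in leaf 2. MRD1 and its neighbour HEI10, a meiotic crossover factor, had log2 ratios of 2.68 and 2.21. The neighbours AT3G28290 and AT3G28300, both named AT14A, had ratios of 3.33 and 3.37 and may share reads. LGT9, a sugar transferase, stood at 1.9, AT4G15630 at 1.77, AT5G02760, a type 2C phosphatase, at 2.47, AGP21, an arabinogalactan protein, at 3.44 and AT1G66100, a thionin, at 3.82.

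Most loci of the mitochondrial genome and many of the chloroplast genome stood lower in set 1 in both tissues. Of 77 mitochondrion-encoded loci tested, 73 were lower in both tissues and 2 higher, against 28% and 30% of all loci. At least 2-fold lower in both were 48, against 1.71%. The median log2 ratio of the 77 loci was -1.56 (-1.47 in flower buds and -1.71 in leaves). They summed to 20.1 CPM in flower bud 1 and 52.8 in flower bud 2, and to 23.7 in leaf 1 and 72.2 in leaf 2. Of 83 chloroplast-encoded loci, 49 were lower in both and 7 higher, against 28% and 30% of all loci. At least 2-fold lower in both were 11 and higher 1, against 1.71% and 1.6%. The median log2 ratio of the 83 loci was -0.74 in flower buds and -0.11 in leaves. ATCG00020 was among the 15 of lowest p on the lower side. It stood at 6.3 CPM in bud 1 and 23.0 in bud 2, and 43.3 in leaf 1 and 211 in leaf 2. Selection of polyA RNA removes most organelle RNA, and these sums were lower in set 1 in both tissues. The ratios were also related to locus length and, less strongly, to GC content. The Spearman rho with GC content was -0.357 in flower buds and -0.122 in leaves, and with mean CPM -0.186 and -0.0109. The Spearman rho of the log2 ratio with locus length was -0.409 in flower buds and -0.172 in leaves, and loci at least 2-fold higher in both tissues had a median length of 927.5 bases, against 1446.5 for those lower and 1422 for all. The part of organelle RNA, length, GC content or level in the ratios of single genes was not tested, beyond removing the length trend. That alternative was chosen after seeing the data, and trends with GC content and level were not removed. It left all 122 named loci in the same direction, with 226 loci at least 2-fold higher and 418 lower in both tissues.

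**Figure D4:**
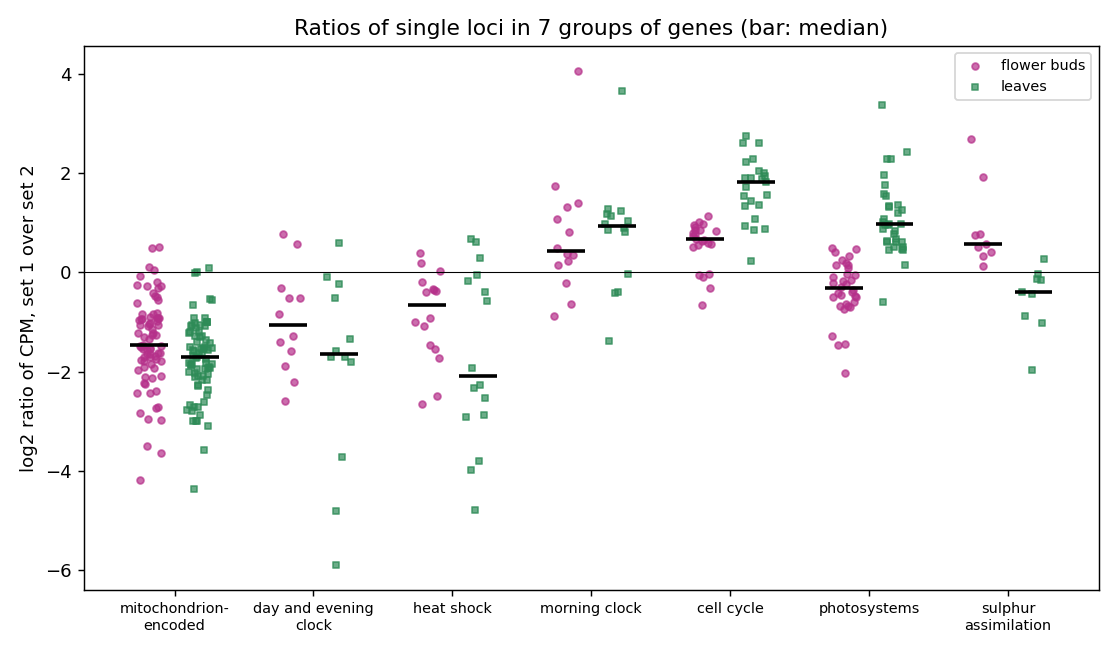
Log2 ratio of CPM of set 1 over set 2 for single loci of 7 groups of genes, in flower buds (circles, left of each pair) and in leaves (squares, right), with a bar at the median. Mitochondrion-encoded, evening clock and heat shock genes lie mostly below 0 in both tissues and cell cycle genes mostly above, while photosystem and sulphur genes lie mostly on opposite sides.

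In several groups the ratio of set 1 over set 2 differed between the tissues in size or in direction. Of 34 genes of the photosystems and light harvesting, 24 were in opposite directions, against 8561 of the 23672 tested loci. The median log2 ratio of the 34 was -0.32 in flower buds and 0.96 in leaves. LHCB3, a light-harvesting protein, stood at 1434 CPM in bud 1 and 1083 in bud 2, and 8764 in leaf 1 and 1803 in leaf 2. LHCB2.3 stood at 219.7 CPM in bud 1 and 174 in bud 2, and 1867 in leaf 1 and 181 in leaf 2. Both were higher with number 1 in each tissue, by more in leaves. The test of the difference between the tissues, in a fit whose spread comes from leaf 3 and 4 alone, called 29 of the 34 with the flower bud shift below the leaf shift, against 13.2% of all loci, and 0 above it, against 5.31%. The spread of those 2 samples stands in for that of the others, so these adjusted p can be too low. For the Calvin cycle and photorespiration the medians were -0.47 in flower buds and 0.43 in leaves with 12 of 20 called below. GAPA-2 and GAPA, subunits of its dehydrogenase, were the members with the largest ratios over both, 1.08 and 0.68. For glucosinolates the medians were -0.11 and 0.78 with 11 of 21 called below. Auxin response genes had medians of -0.24 and 1.03 with 7 of 12, and 6 of the 12 were in opposite directions. IAA29 stood at 1.18 and IAA5 at 1.63 over both. For cytosolic ribosomes and the nucleolus the medians were 0.64 and -0.01 with 8 of 16 called above. Of those 16, 6 were in opposite directions, near the share of all loci.

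ASN1, an asparagine synthase of dark and starved tissue, stood at 111 CPM in bud 1 and 251 in bud 2, and 5.66 in leaf 1 and 0.195 in leaf 2. The sample numbered 1 was the lower in flower buds and the higher in leaves. The dark-induced list as a whole had medians of -0.85 in flower buds and 0.14 in leaves, and DRM1, a dormancy marker, stood at 7.84 CPM in bud 1 against 67.1 in bud 2, and 10.5 in leaf 1 against 19.8 in leaf 2. VSP1 and VSP2, jasmonate-induced storage proteins, had log2 ratios of 0.09 and -0.34 in flower buds and 2.97 and 3.94 in leaves. BGLU28, a gene of sulphur shortage, stood at 12.7 CPM in flower bud 1 and 1.98 in flower bud 2, and had 0 pairs in leaf 1 and 5 in leaf 2. SDI1, of the same list, stood at 6.42 CPM in bud 1 against 1.7 in bud 2, and 8.38 in leaf 1 against 11 in leaf 2. The iron shortage factors BHLH100 and BHLH101 were low, with 2 pairs of BHLH100 in leaf 1 and 45 in leaf 2, and 13 pairs of BHLH101 in leaf 1 and 169 in leaf 2.

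**Figure D5:**
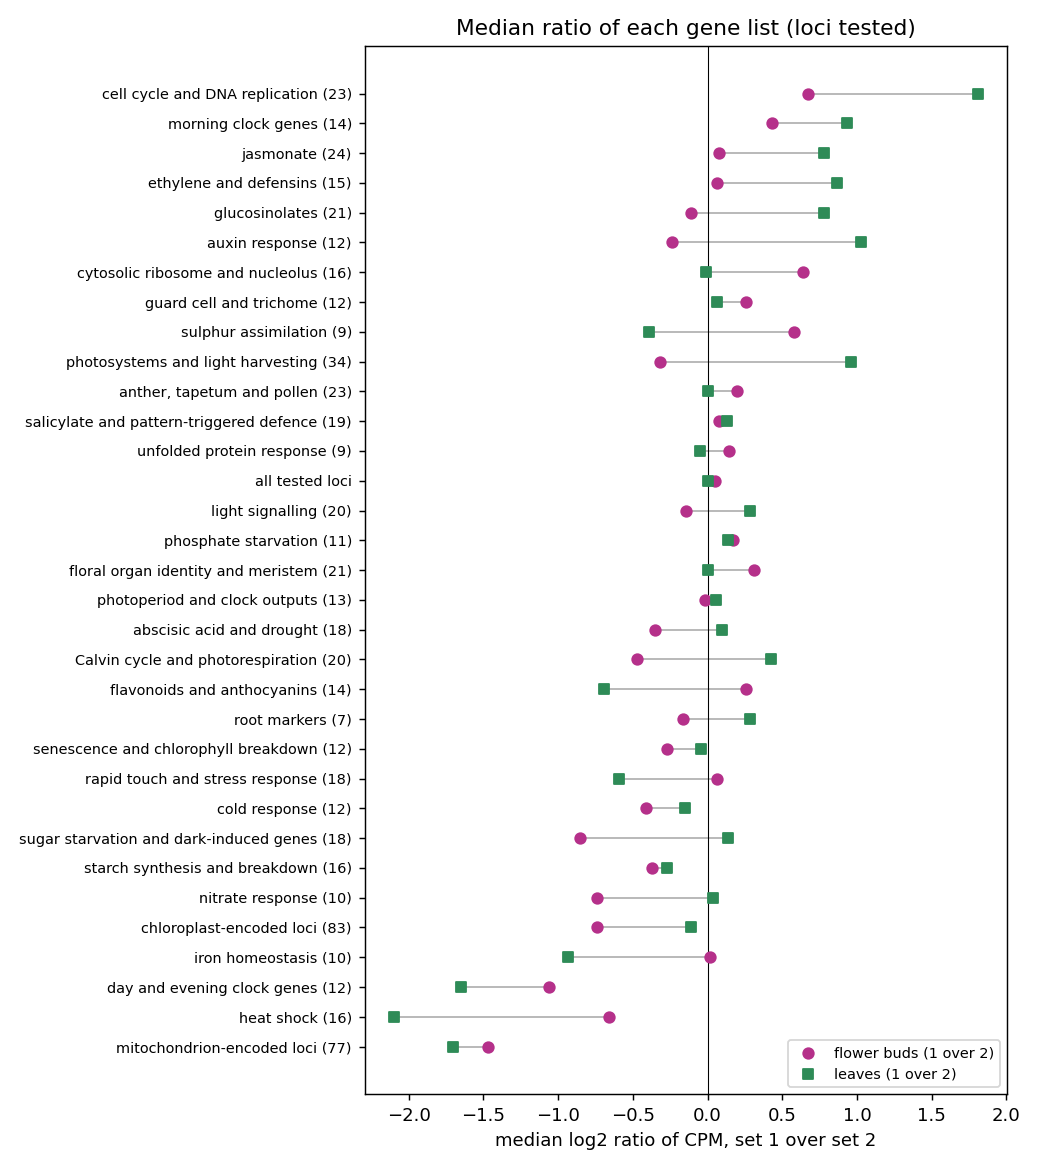
Median log2 ratio of CPM of set 1 over set 2 for each gene list with at least 5 tested loci, for the organelle loci and for all tested loci, in flower buds (circles) and leaves (squares), ordered by the median over both tissues. Cell cycle and morning clock genes are at the top and evening clock, heat shock and mitochondrion-encoded loci at the bottom, with both tissues on the same side of 0.

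The remaining lists had medians over both tissues between -0.64 and 0.50. In flower tissue genes the largest ratios were those of STK, an ovule regulator with 0 pairs in leaves, at 40.2 CPM in bud 1 and 16.7 in bud 2, and of SEP2 at 1.14. For anther and pollen genes they were those of TDF1, a tapetum regulator, at 1.04 and of GRP17, a pollen coat protein, at 1051 CPM in flower bud 1 and 2531 in flower bud 2. In the guard cell and trichome list they were MUTE at 1.89 and GL2 at -1.21. Among root markers they were NRT2.1 at -2.12 and WOX5, which had 46 pairs in flower bud 1 and 16 in flower bud 2, and 1 in leaf 1 and 0 in leaf 2. Among seed genes they were CRA1 at 2.15 and FUS3 at -1.29. For senescence they were SAG12, with 3 pairs in flower bud 1 and 11 in flower bud 2, and 0 in leaf 1 and 15 in leaf 2, and RNS1 at 1.23. For phosphate they were PHT1;4 at -0.89 and SPX3 at -0.72, and for ribosomes and the nucleolus RPL10B at 0.55 and NUC-L1 at -0.63. CRA1, SAG12 and WOX5 were under 1 CPM in each of the 4 libraries.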

How the data were processed

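Raw pair counts of 28094 loci were deposited by the authors, 1 file a library, and count pairs whose mates lie on the same sequence, per the file headers. A header insert limit of 500, or of 1000 for leaf 1a on the HiSeq, applies to a column not used here. Bowtie2 2.0 is named in the submitters' processing notes. Build, annotation, strand and the handling of multiply matching reads are not given in sources used here.

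The test was edgeR 4.0.16 under R 4.3.3, on TMM factors (filterByExpr with a minimum count of 10, quasi-likelihood F-test, tissue as a block, Benjamini-Hochberg adjustment over all tested loci, threshold 0.05). CPM are on TMM-scaled library sizes, and log2 ratios within a tissue use a prior count of 2. A count of 0 allows up to 3 pairs, or 0.0156 to 0.0164 CPM in the HiSeq runs, for counting error only. DESeq2 1.42.0 was an alternative. The difference between tissues was tested in a fit of 6 samples, with leaf 3 and 4 as a level of their own. The fits were tested on simulated data with the same spread for all loci. In the simulation edgeR recovered 56% of log2 changes of 2 between the sets and 100% of those of 3. For the difference between tissues it recovered 2% of log2 changes of 2, 54% of those of 4 and 94% of those of 6. The spread of the real data may differ between loci, so these shares need not hold there.

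The comparison, the tests and the 31 gene lists (501 of 505 entries matched a RefSeq name) were chosen with earlier results of these data known. Named loci, 122 in all, were the 15 of lowest p in each direction at a mean of at least 1 CPM and with the same direction in both tissues, up to 2 members of each list with the largest ratio, every clock and photoperiod gene, and the 10 loci in each direction with a mean of at least 10 CPM and the largest smaller-of-2 ratio. HSP18.2, HSP90.1, MBF1C, BAG6, ROF2, GBSS1, ADG1, COR15A, TCH3, CDKB1;2, UMAMIT28 and CAT1 fall outside that rule and were chosen after their values were seen, as were those said so in the text. No set test was run.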

Additional observations from a re-analysis of the deposited data

Results flagged for a closer look

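The shift between numbers 1 and 2 differed between flower buds and leaves for 1300 loci with the flower bud shift above the leaf shift (5.31%). For 3221 loci (13.2%) it was below, both at an adjusted p under 0.05 (edgeR interaction test, Benjamini-Hochberg over 24471 loci). The spread in that test comes from leaf 3 and 4 alone. Of 34 genes of the photosystems and light harvesting, 29 were called with the flower bud shift below the leaf shift, against 13.2% of all loci. Of the 122 named loci, 43 were called, 20 above and 23 below, against 5.31% and 13.2% of all loci. Many named loci were picked for large ratios, so their count does not stand for loci in general. Each value that follows is the log2 shift in flower buds minus that in leaves.

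Among clock genes and outputs the values were 4.45 for FKF1, 4.33 for PRR3, 1.78 for GRP7, 1.39 for LUX, 1.12 for PRR5, 0.89 for GRP8, -0.86 for GI, -1.05 for ZTL and -1.23 for CAT2. Heat shock and protein folding genes gave 2.14 for HSFA2, 1.49 for HSP70 and 1.04 for BZIP60. Nutrient, starch and starvation genes gave 7.77 for BGLU28, 4.12 for BHLH100, 3.99 for BHLH101, 2.32 for SDI1, 1.43 for DPE1, -1.07 for NIA1, -2.17 for DRM1, -6.03 for ASN1 and -6.13 for LBD39. The fitted values of 4 of these genes rest on libraries with few pairs and are uncertain in size. BGLU28 had 0 pairs in leaf 1 and 5 in leaf 2, and LBD39 119 in leaf 1 and 1 in leaf 2. BHLH100 had 2 pairs in leaf 1. BHLH101 had 13 pairs in flower bud 1, 9 in flower bud 2 and 13 in leaf 1. Of the clock genes above, FKF1 had 13 pairs in leaf 1, and its value is uncertain in size too.

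Light-harvesting, growth and cell cycle genes gave -1.87 for LHCB3, -3.03 for LHCB2.3, -1.88 for CYCB1;4, -1.98 for PCNA1, -2.3 for IAA5 and 1.19 for NUC-L1. Defence, jasmonate, abscisic acid and flavonoid genes gave -2.9 for VSP1, -4.28 for VSP2, 0.76 for PR2, -1.61 for NCED3, 2.34 for TT7, -0.72 for F3H and -3.02 for AT1G66100. Tissue identity genes gave 2.1 for FUS3, -1.32 for SEP2 and -1.61 for GL2. Loci outside the lists gave 1.82 for AT5G23240, 1.66 for NUDT24, -1.2 for AT5G02760, -1.23 for AT2G15880, -2.06 for AT2G33830 and -3.12 for AGP21.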

How the results depend on the processing

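No paired analysis was possible because the replicate number is itself the contrast. Leaving out leaf 3 or leaf 4 leaves no residual for the difference between tissues, so that test was not run. With library size only, 331 loci were called higher and 363 lower, 20 lists held a called member, 63 named loci were called, and the difference between tissues was called for 3339 loci with the flower bud shift above and 2611 below, against 1300 and 3221 with TMM. That scaling moved the median log2 ratio of all loci to 0.13 in flower buds and -0.13 in leaves, against 0.05 and 0 with TMM. DESeq2 called 178 higher and 246 lower, with 18 lists and 59 named loci, and for the difference between tissues 575 above and 2011 below. Loci past the fold limit in both tissues numbered 247 higher and 264 lower at a mean of at least 1 CPM, 1441 and 1317 at 1.5-fold, 20 and 37 at 4-fold, and 226 and 418 with the length trend removed, which was chosen after seeing the data. The cause of these differences was not tested.

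The 6-sample fits without 1 of flower bud 1, flower bud 2, leaf 1 or leaf 2 take the shift from 1 tissue, with leaf 3 and 4 alone giving the spread. They called 2419 to 4196 loci higher and 3228 to 3657 lower, 31 lists in each, and 87 to 97 named loci. Across them the log2 ratio changed sign or was 0 in at least 1 fit for these loci, with ranges of -1.18 to 4.85 for ASN1, -4.9 to 2.75 for BGLU28, -3.55 to 0.50 for BHLH101, -0.57 to 0.64 for BOA, -0.26 to 0.84 for BZIP60, -0.81 to 0.42 for CAT2, -0.22 to 0.80 for CDF1, -0.24 to 0.48 for CO, -0.30 to 0.20 for COL1, -0.0961 to 0.0443 for FT, -1.27 to 3.78 for GRP17, -0.0411 to 0.30 for LNK1, 0 to 2.01 for MYB76, -1.22 to 0.0316 for NUC-L1, 0 to 6.08 for PDF1.3, -0.40 to 0.22 for PRR9, -0.39 to 1.98 for SDI1, -2.22 to 0.23 for SPX3, 0 to 1.33 for STK, -2.35 to 0.0511 for TT7 and -0.34 to 3.94 for VSP2. Without the tissue block the ratio was -0.25 for VSP2, -1.11 for ASN1, 0.0506 for SPX3, 0.30 for CAT2 and 0.11 for COL1. It was 0.00335 for COL1 with upper quartile factors and 0.0243 for FT in the multiplex runs. All 122 named loci kept their direction with DESeq2 size factors, library size only, no filter on low counts, summed runs, DESeq2, the 6-sample fit and the length trend removed. Apart from a multiplex run labelled leaf 1b, which the summed runs add to leaf 1, these settings rest on the same samples numbered 1 and 2. Leaf 3 and 4, as a level of their own, do not enter the set ratio of the 6-sample fit. The kept directions are therefore no independent evidence.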

Other observations

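Loci that lie next to each other on the chromosome were past 2-fold together more often than the share over all loci. Of the 377 nuclear loci higher in set 1 in both tissues by at least 2-fold that could be placed, 49 (13.0%) had a neighbour that was too, in 25 pairs, against 3.21% of all tested loci with such a neighbour. Of the 338 lower ones, 52 (15.4%) had one, in 30 pairs, against 2.83%. Of those 30 pairs, 15 lay in 1 block of chromosome 2, AT2G07675 to AT2G07787, where 23 of 40 tested loci were at least 2-fold lower in set 1 in both tissues. Chromosome 2 of this species carries a copy of mitochondrial DNA near its centromere, and the mitochondrion-encoded loci described above were also mostly lower. Whether reads were shared between such copies was not tested. Outside the block, a count made after the pairs were seen, 30 of 315 lower loci (9.52%) had such a neighbour, in 15 pairs, against 2.68%. LHY and its neighbour UMAMIT28, a transporter family gene, were one pair, at log2 ratios of 3.86 and 1.1. CAT3 and CAT1, both catalase genes, were another, at -1.52 and -1.08. Reads of near-identical or overlapping neighbours may be shared, and their part in these counts was not tested.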
